A study of Drosophila melanogaster with 4 samples.

Results

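Muc96D, Muc68Ca, Muc26B, MFS18 and CG17826 are 5 Drosophila genes, 3 of them mucin genes by name, that ranked among the nuclear-encoded genes with most reads in mitoribosome profiling libraries of larvae. They were 5 of 17846 genes outside the mitochondrial genome (mtDNA) to which the deposited transcript entries belonged, of which 13176 had at least 1 read and 3003 had enough reads to be tested, all 5 among them. They were chosen by their read totals after results of these data were known, so their high totals are a description and carry no test. Gut mucins and chitin-binding proteins is the name under which they were grouped. No tissue was separated from these larvae, so that name was not checked by the counts: genes of midgut digestive enzymes had reads (35 of 36 listed symbols were matched, and all 35 had reads), and so had those of the fat body (11 of 11) and of muscle (15 of 15). The unmatched midgut symbol, Mag, is spelled mag in the counts, where it had 1602 reads per library on average.

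The libraries hold RNA fragments from the monosome fractions of mitochondrial lysates of third-instar larvae. A lysate was digested with 200 U of RNase T1, which cuts single-stranded RNA after G, and run on a 10–30% sucrose gradient, and fragments of 15 to 90 nt were sequenced. The 4 libraries were 2 of DmAngel KO larvae (Angel-/-) and 2 of control larvae (Angel+/+, the white Dahomey strain w Dah), all collected 4 days after egg laying. DmAngel KO was the KO-1 line, a single line with a CRISPR deletion in DmAngel, which encodes a phosphatase of mitochondrial RNA ends. The line had been backcrossed for 6 generations to a white-eyed background. Mitochondria came from whole larvae as a crude fraction, and whether the 2 libraries of a condition were separate biological samples or technical repeats is stated differently in the sources, so p-values measure the spread between these libraries only.

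Mucins are secreted proteins with long stretches rich in threonine, serine and proline that carry many sugar chains, and they form slimy coats over epithelia. In the insect midgut the lining is the peritrophic matrix, a sheet of chitin fibres held together by proteins with chitin-binding domains, the peritrophins, which shields the gut cells from food particles and microbes. Such secreted proteins are translated by cytosolic ribosomes on the endoplasmic reticulum, and none is encoded in mtDNA.

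The DmAngel KO libraries held 8175475 and 8227127 reads in replicates 1 and 2, against 4159707 and 1789947 in the control libraries. Entries of mtDNA took 93.1% and 93.7% of the reads in DmAngel KO, against 68.1% and 74.5% in control, which left 566679 and 518033 reads outside mtDNA in DmAngel KO and 1324943 and 457054 in control. Within these, the 4 larval serum protein genes (Lsp1alpha, Lsp1beta, Lsp1gamma and Lsp2, storage proteins of the fat body) held 3.70% and 2.33% in DmAngel KO, against 30.9% and 16.2% in control. A share of the reads is therefore given below with more than 1 total. The targeted gene, angel, had 1 read in each DmAngel KO library and 2 and 0 in the control libraries, too few to check the labels.

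Each of the 5 genes had a single transcript entry in the annotation (BDGP6.54), so no reads were shared between isoforms of it. Muc96D (FBgn0051439) lies on chromosome 3R from 25397788 to 25400645 on the minus strand, with 2 exons and a transcript of 2796 nt, of which 2643 nt (94.5%) are coding. Muc68Ca (FBgn0036181) is a single exon on 3L, from 11610578 to 11620101 on the minus strand. At 9524 nt, 9405 of them coding (98.8%, or 3135 codons with the stop), it was the longest of the 5 transcripts. Muc26B (FBgn0040950), on 2L from 6151969 to 6153701 on the plus strand, has 2 exons, a transcript of 1670 nt and 1413 coding nt. These 3 genes carry the name mucin.

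MFS18 (FBgn0025684), a gene for which the sources used here give no function, lies on 2L from 4446670 to 4448635 on the minus strand. Its 3 exons make a transcript of 1846 nt with 1317 coding nt (71.3%), the lowest coding share of the 5. CG17826 (FBgn0036227), whose product has chitin-binding domains of the peritrophin kind, lies on 3L from 11949839 to 11952225 on the plus strand, with 2 exons and 2253 coding nt in a transcript of 2329 nt. Its neighbours on 3L are obst-G, 76 bp away, and CG7252, 591 bp away, which had 62 and 44 reads in all 4 libraries together, against 16148 reads on CG17826. The genes next to the other 4 had between 1 read (CG42832 beside Muc68Ca and CG31639 beside Muc26B) and 311 reads (Akr1B, 434 bp from Muc68Ca). The high counts were thus not shared by the adjacent genes.

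Summed over the 4 libraries, Muc96D had 334150 reads and ranked 1 among all genes outside mtDNA, ahead of Lsp1beta with 203399. Muc68Ca followed at rank 5 with 122555 reads, between apolpp (178813), the precursor of the lipid-carrying apolipophorins, and Lsp1alpha (120654). MFS18 ranked 8 with 52389 reads, between bt (118717) and dpy (45465). Muc26B ranked 12 with 33984 reads, between the collagen IV genes Col4a1 (38016) and vkg (18505). CG17826 ranked 18 with 16148 reads, between CG18180 (16190) and the midgut protease gene Jon65Aiv (15262). No cutoff separated the 5 genes from those around them, and genes of other tissues stood between them in this order.

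A long transcript can collect more reads than a short one, so levels were also set per length, as CPM (counts scaled to 1000000 reads outside mtDNA) divided by the transcript length in kilobases. On this scale Muc96D averaged 47648 over the 4 libraries and still ranked 1, MFS18 averaged 11767 (rank 4), Muc26B 7822 (rank 9), Muc68Ca 4772 (rank 18) and CG17826 2909 (rank 29). Among the genes described, Muc96D did not overlap the next one, MFS18. The level of Muc96D per kilobase lay between 25492 and 64092 across the 4 libraries, above MFS18 at 5027 to 23090. Muc96D was not the highest of all genes per length in control replicate 1. There Lsp1gamma had 148026 reads on a transcript of 2501 nt, against 94436 reads on 2796 nt for Muc96D. In the other libraries Lsp1gamma had fewer reads than Muc96D. The described genes below Muc96D each overlapped the next in range. Muc26B lay between 5586 and 11502, Muc68Ca between 3568 and 6388 and CG17826 between 1117 and 5198. Within single libraries Muc26B stood above Muc68Ca in 4 of 4, Muc68Ca above CG17826 in 3 of 4, and MFS18 above Muc26B in 2 of 4.

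Together the 5 genes took 25.0% and 26.5% of reads outside mtDNA in DmAngel KO, against 13.02% and 23.5% in control. The DmAngel KO libraries lay above both control libraries, by little over control replicate 2 and by much over control replicate 1, the library with most reads on larval serum protein genes. Of all reads, mtDNA included, they held 1.73% and 1.67% in DmAngel KO, against 4.15% and 6.01% in control, which is the opposite order.

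**Figure D1:**
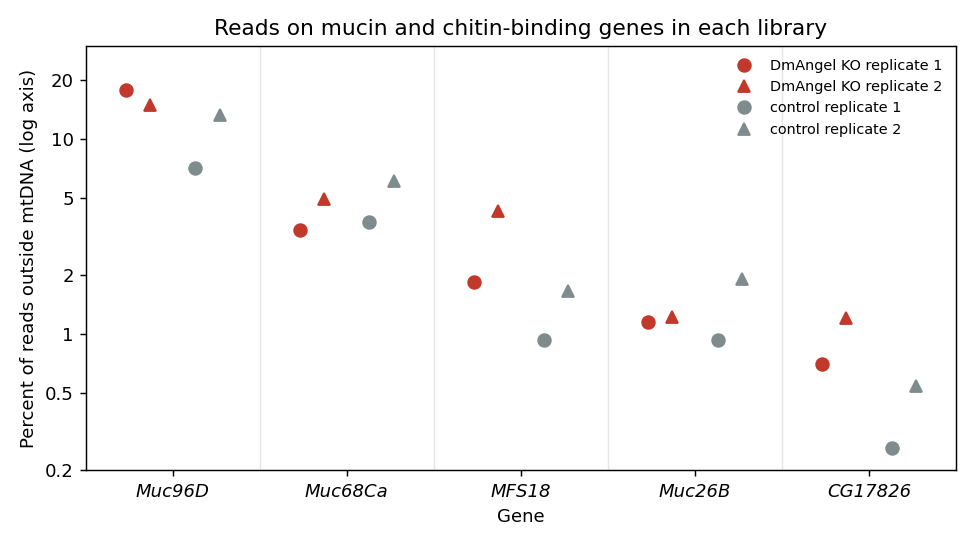
Percent of reads outside mtDNA on each of the 5 genes (log axis), with DmAngel KO libraries in red left of the control libraries in grey, circles for replicate 1 and triangles for replicate 2. Muc96D, MFS18 and CG17826 were higher in both DmAngel KO libraries than in either control library, while Muc68Ca and Muc26B overlapped.

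Muc96D had 101549 and 77185 reads in DmAngel KO, or 17.9% and 14.9% of the reads outside mtDNA, against 94436 and 60980 reads, or 7.13% and 13.3%, in control. It was the gene with most reads in both DmAngel KO libraries and in control replicate 2, and stood at rank 4 in control replicate 1. The shares averaged 16.4% ± 2.14 in DmAngel KO and 10.2% ± 4.39 in control (SD, n = 2 each), a ratio of 1.60. On the log2 scale this ratio was 0.68, and leaving out 1 library gave 0.30 (without control replicate 1) to 1.20 (without control replicate 2). With 2 libraries against 2, the exact two-sided permutation test over the 6 splits cannot go below p = 0.33, and it gave 0.33 here.

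MFS18 had 10465 and 22081 reads in DmAngel KO, or 1.85% and 4.26%, against 12296 and 7547 reads, or 0.928% and 1.65%, in control. DmAngel KO replicate 2 stood well above the other 3 libraries. CG17826 had 3954 and 6271 reads in DmAngel KO, or 0.698% and 1.21%, against 3446 and 2477 reads, or 0.260% and 0.542%, in control. The means were 3.05% ± 1.71 in DmAngel KO and 1.29% ± 0.511 in control for MFS18, and 0.954% ± 0.363 in DmAngel KO and 0.401% ± 0.199 in control for CG17826 (SD, n = 2 each), ratios of 2.37 and 2.38, or 1.24 and 1.25 on the log2 scale. Leaving out 1 library moved the log2 ratio of MFS18 to between 0.52 (without DmAngel KO replicate 2) and 1.72 (without DmAngel KO replicate 1, and likewise without control replicate 2), and that of CG17826 to between 0.80 (without DmAngel KO replicate 2) and 1.88 (without control replicate 2). In neither gene did the DmAngel KO and control shares overlap (exact two-sided permutation p = 0.33 for each, the lowest possible).

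Muc68Ca had 19258 and 25512 reads in DmAngel KO, or 3.40% and 4.92%, against 49977 and 27808 reads, or 3.77% and 6.08%, in control. Muc26B had 6543 and 6302 reads in DmAngel KO, or 1.15% and 1.22%, against 12360 and 8779 reads, or 0.933% and 1.92%, in control. Shares of both genes overlapped between the conditions. For Muc68Ca they averaged 4.16% ± 1.08 in DmAngel KO and 4.93% ± 1.63 in control, and for Muc26B 1.19% ± 0.0438 in DmAngel KO and 1.43% ± 0.699 in control (SD, n = 2 each; exact two-sided permutation p = 0.667 and 1). The log2 ratios of these shares, -0.24 and -0.27, turned positive without control replicate 2, at 0.14 for Muc68Ca and 0.35 for Muc26B.

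Counting error was small beside these differences between replicates. The 95% Wilson interval of Muc96D in DmAngel KO replicate 1 was 17.8% to 18.0%, and that of CG17826 in control replicate 2, the library and gene with fewest reads, was 0.521% to 0.564%. Such intervals cover counting error only, since PCR copies of a molecule were not told apart.

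Shares of 3 of the 5 genes thus lay higher in DmAngel KO without overlap, against 57% of the 3003 tested genes, so the count is close to the background. As a share of all reads, 5 of 5 lay lower in DmAngel KO without overlap, where 80.4% of tested genes did, and Muc96D for example held 1.24% and 0.938% of all reads in DmAngel KO, against 2.27% and 3.41% in control. With the 4 larval serum protein genes taken out of the total, a denominator chosen after the data were seen, 1 of 5 lay higher (42.3% of tested genes) and 2 of 5 lower (17% of tested genes). CG17826 was the higher one, at 0.725% and 1.24% in DmAngel KO, against 0.376% and 0.647% in control. Muc68Ca (3.53% and 5.04% in DmAngel KO, against 5.46% and 7.26% in control) and Muc26B (1.20% and 1.25% in DmAngel KO, against 1.35% and 2.29% in control) were the lower ones. Muc96D overlapped on this total, at 18.6% and 15.3% in DmAngel KO, against 10.3% and 15.9% in control, as did MFS18, at 1.92% and 4.36% in DmAngel KO, against 1.34% and 1.97% in control.

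All 3003 genes were fitted in edgeR (quasi-likelihood F test, DmAngel KO against control) with TMM factors, which set the bulk of the genes to no change, and Benjamini-Hochberg adjustment. The test called 0 of the 5 genes at an adjusted p under 0.05, where it called 11.2% of all tested genes. It also gave 0 of the 5 an unadjusted p under 0.05, where 378 of the 3003 tested genes had one with a higher value and 455 with a lower value. With the replicate number as a block it called 2 of the 5, Muc68Ca and Muc26B, both lower in DmAngel KO, where it called 20.9% of all tested genes and 12.6% lower. The block rests on the sources' account of 2 independent experiments with both conditions handled in parallel, and that the replicate numbers mark these experiments is not stated. DESeq2, which called 11% of the 2246 genes it gave an adjusted p, called 0 of the 5 as well, with unadjusted p of 0.0254 for Muc68Ca and 0.0242 for Muc26B. In bulk libraries of this kind fewer cells that express a gene and less RNA per cell cannot be told apart.

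Muc96D had 133977 and 124140 TMM-scaled CPM in DmAngel KO, against 91044 and 167680 in control, so both DmAngel KO libraries lay between the control libraries. Its log2 fold change was -0.0034 (SE 0.64, 95% interval -1.40 to 1.39, edgeR adjusted p = 0.998). The interval leaves room for a change of over 2-fold either way, and without control replicate 2 the estimate was 0.40.

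Muc68Ca and Muc26B had lower scaled counts in DmAngel KO. For Muc68Ca they were 25408 and 41032 CPM in DmAngel KO, against 48182 and 76465 in control, and for Muc26B 8632 and 10136 in DmAngel KO, against 11916 and 24140 in control. The groups did not overlap in these 2 of 5 genes, as in 57% of tested genes (27.9% lower in DmAngel KO). The log2 fold changes were -0.91 (SE 0.57, 95% interval -2.15 to 0.34) for Muc68Ca and -0.94 (SE 0.50, 95% interval -2.04 to 0.15) for Muc26B, with edgeR adjusted p = 0.326 and 0.242. With the replicate block the estimates were -0.91 (SE 0.25, edgeR adjusted p = 0.00265) for Muc68Ca and -0.86 (SE 0.26, edgeR adjusted p = 0.00766) for Muc26B, both past the threshold. In the blocked fit the spread was pooled over all genes, so these SE and p-values do not measure the spread of the 2 genes themselves. Over all alternatives the adjusted p ran from 0.00265 to 0.767 for Muc68Ca and from 0.00361 to 0.713 for Muc26B.

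MFS18 had 13807 and 35514 scaled CPM in DmAngel KO, against 11854 and 20752 in control, and CG17826 had 5217 and 10086 in DmAngel KO, against 3322 and 6811 in control. Both overlapped, with DmAngel KO replicate 2 the highest library of each. The log2 fold changes were 0.60 for MFS18 (SE 0.57, 95% interval -0.65 to 1.84, edgeR adjusted p = 0.539) and 0.60 for CG17826 (SE 0.50, 95% interval -0.49 to 1.68, edgeR adjusted p = 0.474). Without DmAngel KO replicate 2 the estimates were -0.32 and -0.044, so the sign rested on that library.

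**Figure D2:**
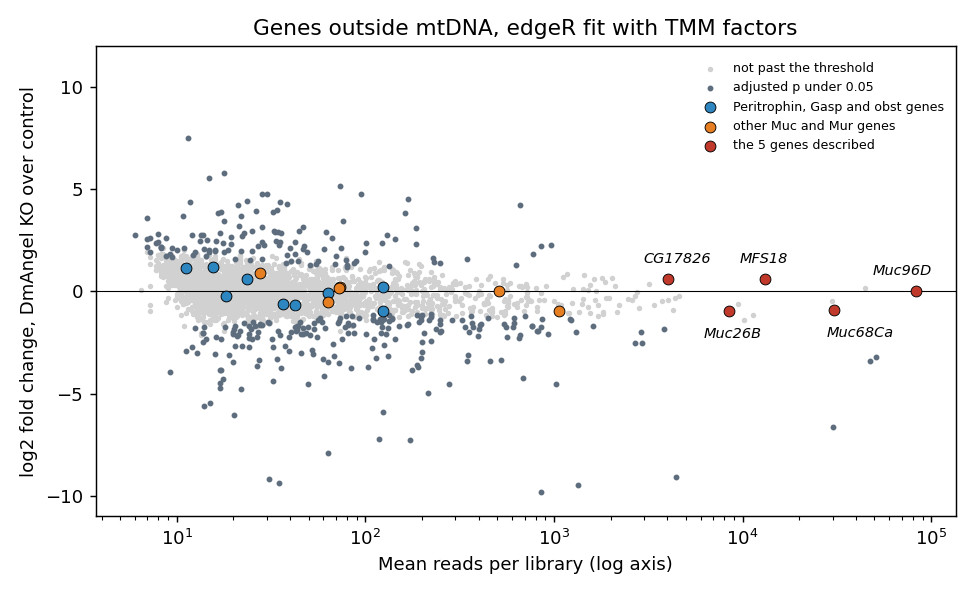
Log2 fold change, DmAngel KO over control, against mean reads per library (log axis) for the 3003 genes tested by edgeR with TMM factors; dark points passed an adjusted p under 0.05. The 5 genes described (red) lie at the right end, between -0.94 and 0.60, and neither they nor the other mucin (orange) and peritrophin (blue) genes passed.

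The direction of single genes depended on the total to which reads were set. With the library size taken from all entries, mtDNA included, the median of all tested genes moved to -1.50 on the log2 scale, and with the sum outside mtDNA and no factors it was 0.70, against 0.014 with TMM factors. Muc96D was 0.68 with no factors and -1.38 with all entries, and MFS18 and CG17826 had positive estimates outside mtDNA and negative ones, -0.86 and -0.83, with all entries. Muc68Ca and Muc26B had negative estimates throughout, from -0.24 and -0.27 with no factors to -2.34 and -2.33 with all entries. The call of Muc68Ca and Muc26B as lower with all entries stood among 2672 of 4247 genes called lower there (62.9%). Relative to the median of all genes, Muc68Ca lay at -0.92 with TMM factors, -0.94 with no factors and -0.84 with all entries. It lay at -0.56 in the fit of genes with at least 50 mean reads. Leaving out a library gave -1.36 (without DmAngel KO replicate 2) to -0.71 (without control replicate 2).

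**Figure D3:**
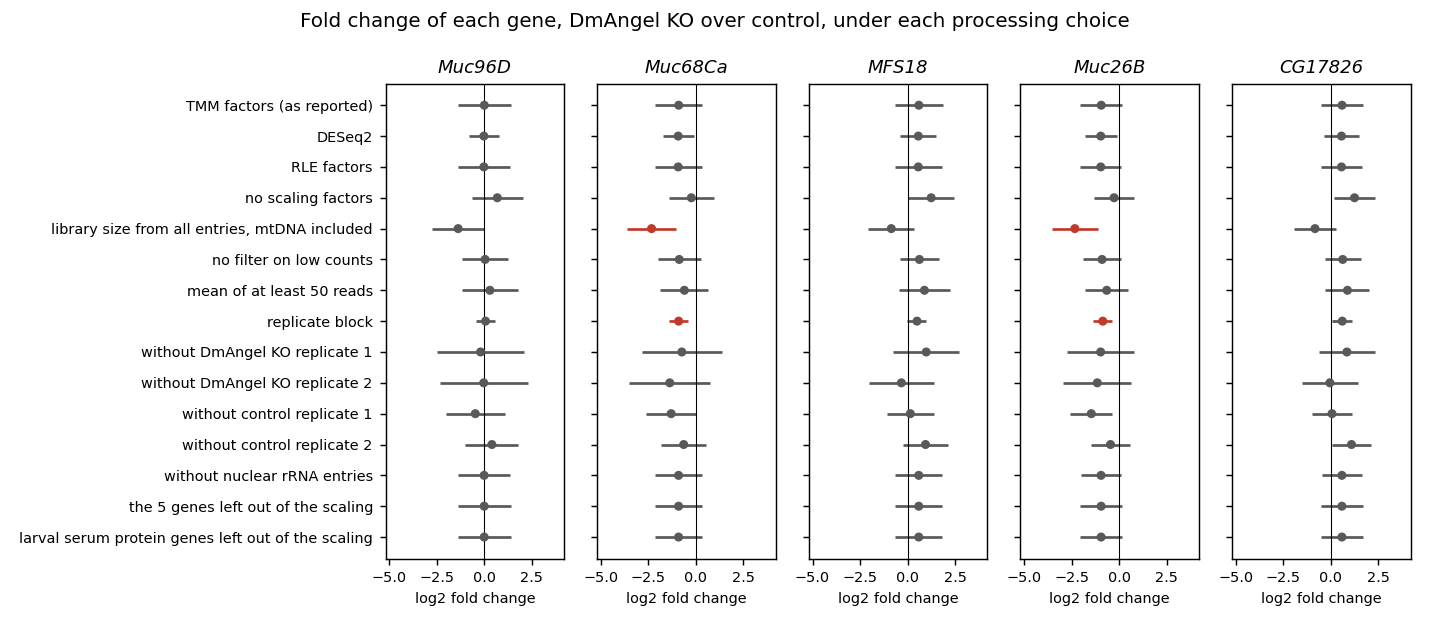
Log2 fold change, DmAngel KO over control, of each of the 5 genes (panels) under each processing choice, as points with 95% intervals; red marks an adjusted p under 0.05. The line at 0 is crossed by most intervals, and Muc68Ca and Muc26B passed with the replicate block and when all entries made up the library size.

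Ratios between the 5 genes within a library do not depend on the total, and they were computed after the data were seen. Per 100 reads on Muc68Ca, Muc96D had 527 and 303 reads in DmAngel KO, against 189 and 219 in control, a ratio of means of 2.03. MFS18 had 54.3 and 86.6 in DmAngel KO, against 24.6 and 27.1 in control (2.72), and CG17826 had 20.5 and 24.6 in DmAngel KO, against 6.90 and 8.91 in control (2.85). Muc26B, with 34.0 and 24.7 in DmAngel KO and 24.7 and 31.6 in control, overlapped (1.04).

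Muc68Ca and Muc26B thus kept a like ratio to each other, and so did MFS18 and CG17826: MFS18 had 265 and 352 reads per 100 reads on CG17826 in DmAngel KO, against 357 and 305 in control. Of the 10 pairs of the 5 genes, 6 had ratios that did not overlap between conditions, each with Muc68Ca or Muc26B on the lower side in DmAngel KO. Among all 365085 pairs of genes with a mean of at least 50 reads, 64.1% did not overlap, so 6 of 10 is close to the background.

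**Figure D4:**
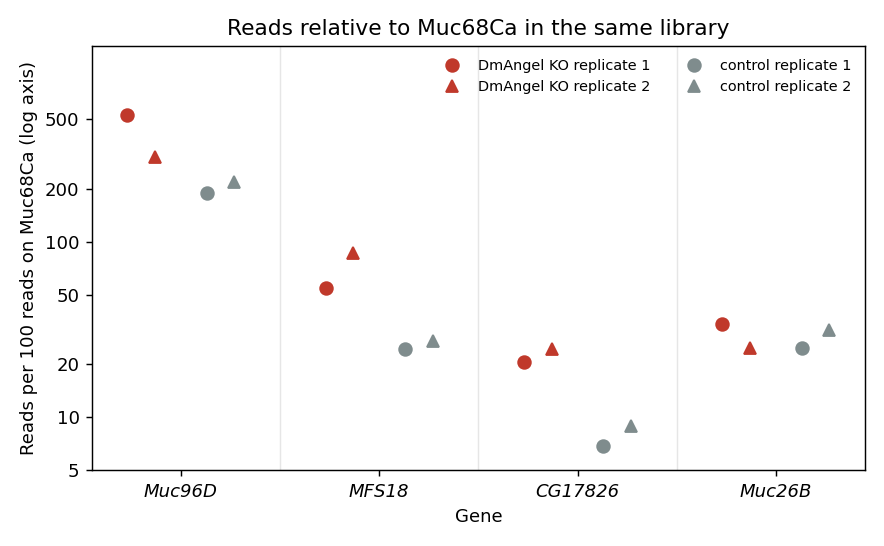
Reads on Muc96D, MFS18, CG17826 and Muc26B per 100 reads on Muc68Ca in the same library (log axis), with DmAngel KO libraries in red left of the control libraries in grey. Muc96D, MFS18 and CG17826 lie higher in both DmAngel KO libraries, and Muc26B lies at 34.0 and 24.7 in DmAngel KO and at 24.7 and 31.6 in control.

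Replicates of 1 condition differed by more in all 5 genes in control, and in MFS18, CG17826 and Muc68Ca in DmAngel KO, than in the median gene. On the log2 scale of TMM-scaled CPM, replicate 2 minus replicate 1 was 1.36 for MFS18, 0.95 for CG17826, 0.69 for Muc68Ca, 0.23 for Muc26B and -0.11 for Muc96D in DmAngel KO. The median size of this difference over the 858 tested genes with a mean of at least 50 reads was 0.28 in DmAngel KO. In control it lay between 0.67 (Muc68Ca) and 1.04 (CG17826) for all 5 genes, all of them higher in replicate 2, against a median size of 0.46.

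The profile of a gene over the 4 libraries was compared by its distance from another, the root of the summed squared differences of log2 CPM after centring each gene on its mean. Among the 5 genes the nearest pairs were MFS18 with CG17826 (distance 0.35) and Muc68Ca with Muc26B (0.41), and the other pairs lay between 0.93 and 1.58. Of 853 other genes with a mean of at least 50 reads, those nearest to the mean profile of the 5 were the 28S rRNA pseudogene 28SrRNA-Psi:CR40596 (0.136), Gasp (0.165), CG8157 (0.179), pre-rRNA:CR45847 (0.217) and 28SrRNA:CR45844 (0.223). Taken singly, Muc96D was nearest to 2SrRNA:CR45864 (0.150), Muc68Ca to RpLP2 (0.118), Muc26B to alpha-Spec (0.212), MFS18 to CG42685 (0.159) and CG17826 to CG43897 (0.190). The distances rest on 4 libraries and are given with no test.

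The wider mucin family was taken as the 19 genes whose symbols begin with Muc or Mur and a digit. Of these, 17 had reads and 9 were tested, and none was called higher or lower (0 and 0 with an adjusted p under 0.05, 0 and 1 with an unadjusted p under 0.05, by edgeR). Among all 3003 tested genes 4.16% were called higher and 6.99% lower, and 378 and 455 had an unadjusted p under 0.05. With the replicate block Muc55B was called lower beside Muc68Ca and Muc26B, and without control replicate 2 edgeR called Muc55B lower and Muc11A higher. The median log2 fold change of the 9 was -0.0034, and 0.082 without Muc96D, Muc68Ca and Muc26B, beside 0.014 for all tested genes. Reads of the family were concentrated on the 3: they held 98.8% and 98.6% of them in DmAngel KO, against 98.1% and 98.8% in control.

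The gene with an unadjusted p under 0.05 was Muc55B, with 765 and 564 reads in DmAngel KO, against 2395 and 521 in control (log2 fold change -0.97, SE 0.38, edgeR adjusted p = 0.122, and 0.00832 with the block). Muc11A had 465 and 706 reads in DmAngel KO, against 365 and 513 in control, at a log2 fold change of -0.00087 (SE 0.55). Muc68E, Muc18B and Mur29B had between 34 and 104 reads per library, with log2 fold changes of 0.24, 0.17 and -0.54 and edgeR adjusted p = 0.711, 0.807 and 0.394. Mur18B, the last of the tested genes of the family, had 34 and 36 reads in DmAngel KO, against 31 and 9 in control, with the most positive estimate of them (log2 fold change 0.87, SE 0.42, edgeR adjusted p = 0.203). None of these other mucin genes came near the read counts of Muc26B, the least read of the 3.

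Peritrophins were taken by symbol (Peritrophin-15a, Peritrophin-15b, Peritrophin-A, Gasp and the obst genes, which encode chitin-binding proteins of the gut lining, the tracheae or the cuticle). Of 12 such genes 11 had reads and 9 were tested, with a median log2 fold change of -0.10. By edgeR 0 were called higher and 0 lower, where 4.16% of all tested genes were called higher and 6.99% lower. With an unadjusted p under 0.05 there were 2 positive and 1 negative estimate, beside 378 and 455 among all 3003 tested genes. Of these 3 genes with an unadjusted p under 0.05, the one with a negative estimate was obst-E, a protein of the larval cuticle. This gene had 94 and 79 reads in DmAngel KO, against 225 and 101 in control (log2 fold change -0.97, SE 0.34, edgeR adjusted p = 0.0837). It was called lower with the replicate block (adjusted p = 0.026 by edgeR) and without control replicate 1 (0.0222). Peritrophin-15a had 117 and 154 reads in DmAngel KO, against 153 and 72 in control, and Gasp, a protein of the tracheal lining, 60 and 71 in DmAngel KO, against 71 and 53 in control. The 2 with positive estimates at an unadjusted p under 0.05 were obst-G, the neighbour of CG17826, and obst-H. There were 26 and 17 reads on obst-G in DmAngel KO, against 15 and 4 in control, and 20 and 11 on obst-H in DmAngel KO, against 10 and 4 in control. Both passed the filter on low counts through the DmAngel KO libraries alone, so their direction was set by the filter and carries no test.

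Among 16 tested genes that make, assemble or degrade chitin, edgeR called 0 higher and 2 lower, where it called 4.16% of all tested genes higher and 6.99% lower. Cht4, a chitinase, had 27 and 13 reads in DmAngel KO, against 565 and 99 in control (log2 fold change -3.84, SE 0.47, edgeR adjusted p = 0.000284). Idgf6, an imaginal disc growth factor of the chitinase family, had 725 and 613 reads in DmAngel KO, against 2676 and 851 in control (log2 fold change -1.34, SE 0.37, edgeR adjusted p = 0.0345). The median of the 16 was -0.67. The number called lower was 7 without control replicate 2, 1 without DmAngel KO replicate 1 or replicate 2, and 4 with the replicate block, which added Idgf5 and verm.

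Midgut digestive enzymes are products of the same organ that the name of the 5 genes refers to. By edgeR 14 of 30 tested genes were called lower and 0 higher, where 6.99% of all tested genes were called lower and 4.16% higher. The median log2 fold change of the 30 was -1.01. Of the 14, Amy-d (3 and 3 reads in DmAngel KO) and LysE (9 and 9) passed the filter on low counts through the control libraries alone. The direction of these genes was set by the filter and carries no test. With the replicate block 20 were called lower, where 12.6% of all tested genes were. Without DmAngel KO replicate 2, 9 were called lower. Jon25Bi, a serine protease, had 118 and 61 reads in DmAngel KO, against 1519 and 403 in control (log2 fold change -3.34, SE 0.41, edgeR adjusted p = 0.000284). LysS, a digestive lysozyme, had 226 and 196 reads in DmAngel KO, against 1693 and 497 in control (log2 fold change -2.29, SE 0.36, edgeR adjusted p = 0.00168). The list took 3.10% and 1.66% of reads outside mtDNA in DmAngel KO, against 3.54% and 2.58% in control. These counts and shares leave out mag, which was listed as Mag and so was not matched. Its log2 fold change was -1.70 (SE 0.46, edgeR adjusted p = 0.0339). Whether the 5 genes differed from these enzymes in their response was not tested.

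Marker lists of other tissues were read in the same libraries. The calls of edgeR were 7 of 11 tested fat body genes lower and 0 higher, 3 of 12 larval cuticle genes lower and 0 higher, and 0 of 15 muscle genes in either direction. Over all tested genes 6.99% were called lower and 4.16% higher. Of the 7 fat body genes, Lsp2 (3 and 0 reads in DmAngel KO), Fbp1 (4 and 3) and Fbp2 (3 and 1) passed the filter on low counts through the control libraries alone. Their direction was set by the filter and carries no test. The number of fat body genes called changed when a DmAngel KO library was left out. With the replicate block the muscle gene Tm1 was called lower and Act57B higher, where 12.6% of all tested genes were called lower and 8.36% higher. Without control replicate 1 the log2 fold change of Tm1 was -1.74. Fat body genes took 12.9% and 11.5% of reads outside mtDNA in DmAngel KO, against 37.2% and 21.1% in control. Most reads of the muscle list were on bt, which encodes the giant sarcomere protein projectin, with 3.26% and 6.85% in DmAngel KO, against 2.69% and 6.37% in control. The other 14 muscle genes together held 1.27% and 0.71% in DmAngel KO, against 0.434% and 0.586% in control. They lay higher in both DmAngel KO libraries, as 57% of single tested genes did on this share. In DmAngel KO the largest parts were on Mhc (0.568% and 0.236%, against 0.153% and 0.160% in control) and Act57B (0.343% and 0.208%, against 0.0922% and 0.0971% in control). The part of these lists in the values of the 5 genes was not tested beyond the total without larval serum protein genes.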

How the data were processed

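Mitoribosome footprint libraries of 2 DmAngel KO and 2 control larval samples were used. BBMerge (merging of read pairs) and BBDuk (linker trimming) were run by the authors, who then removed reads aligned to non-coding RNA, aligned the remainder with Bowtie2 to the sense strand of Ensembl transcripts (genome build BDGP6 per the labels) and deposited counts of reads per transcript entry without normalization. How counts were taken from alignments, and how reads matching several entries were shared, is not given in the sources used here. Of 34882 entries outside mtDNA, 34713 were matched to genes in the annotation of BDGP6.54 and all were summed per gene. Nuclear rRNA entries (136) held 2.95% and 4.08% of these reads in DmAngel KO and 2.05% and 3.03% in control.

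Genes were filtered with filterByExpr, which left 3003, scaled with TMM factors and tested with edgeR 4.0.16 in R 4.3.3 (quasi-likelihood, Benjamini-Hochberg, threshold 0.05). DESeq2 1.42.0 was an alternative. Scripts were tested on simulated data. The share of single libraries was given 95% Wilson intervals, and log2 profiles used a pseudocount of 0.5. The replicate number as a block was an alternative: the sources describe 2 independent experiments, and the differences between replicates of DmAngel KO and of control correlated at r = 0.18 across the 3003 genes. Replicate libraries differed beyond sampling noise and none was counted as a duplicate. The genes named were the 5 genes, mucin, peritrophin and angel genes, called genes of other lists with a mean of at least 50 reads, the nearest profiles, and the neighbours by rank. Neighbours on the chromosome and some further genes (obst-G, obst-H, Mur18B, Idgf5, verm, Tm1, Act57B, Mhc, Amy-d, LysE, the glue genes) were named after their values were seen. The 5 genes and all lists were chosen with earlier results of these data known. The rule for peritrophins by protein motif could not be applied without protein sequences, and symbols were used.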

Additional observations from a re-analysis of the deposited data

How the results depend on the processing

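The log2 fold change of Muc96D, -0.0034 as reported, had the opposite sign with no scaling factors (0.68), with no filter on low counts (0.038), with only genes of at least 50 mean reads (0.29) and with transcript entries fitted one by one (0.15), and lay between -0.48 and 0.40 when each library was left out in turn. The sign of MFS18 and CG17826 reversed when all entries made up the library size (-0.86 and -0.83), and leaving out each library gave -0.32 to 0.98 and -0.044 to 1.09, both lowest without DmAngel KO replicate 2. Muc68Ca and Muc26B passed the threshold with all entries (-2.34 and -2.33) and lay between -1.38 and -0.65 and between -1.46 and -0.45 in the fits that left out a library. As a share of all reads, the log2 ratio of the mean shares was -1.38 for Muc96D, -2.34 for Muc68Ca, -2.33 for Muc26B, -0.86 for MFS18 and -0.83 for CG17826.

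Over all genes, 125 were called higher and 210 lower. The numbers were 68 higher with DESeq2, and 735 higher and 117 lower of 3003 genes with no scaling factors. With all entries they were 31 higher and 2672 lower (62.9%) of 4247 genes, a background for the lists below. The numbers were 78 higher and 100 lower among the 858 genes of at least 50 mean reads. They lay between 92 and 175 higher and between 119 (without DmAngel KO replicate 2) and 436 lower (without control replicate 2) when a library was left out. In the mucin list 1 gene was called higher with no scaling factors and 8 lower with all entries, and leaving out a library gave 0 to 1 in each direction (1 without control replicate 2). In the peritrophin list 3 were higher with no scaling factors, 6 lower with all entries, and 0 to 1 lower without a library (1 without control replicate 1). In the other lists together 7 were higher with no scaling factors and 1 with the mean of at least 50 reads. With all entries 83 were lower, against 30 in the main fit with TMM factors. Glue genes of the salivary gland made up 7 of the 83 and 4 of the 30. The direction of those 4 was set by the filter on low counts, so they carry no test. The same holds for Lsp2, Fbp1, Fbp2, Amy-d and LysE among the 30. The cause of these differences was not tested.

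With the replicate number as a block, edgeR called 251 genes higher and 377 lower (8.36% and 12.6%), including all 335 called without it. Muc68Ca (-0.91) and Muc26B (-0.86) then passed, Muc96D was 0.062, and MFS18 and CG17826 stayed short of the threshold. The mucin list had 3 genes lower and the peritrophin list 1 lower. The other lists had 1 higher and 40 lower, 4 of the 40 being glue genes.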

Other observations

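The salivary gland glue genes, whose secreted products include mucin-like proteins that fix the pupa to its substrate, had reads in control and next to none in DmAngel KO. Of 12 listed symbols 8 were in the annotated counts. The 4 that passed the filter on low counts did so through the control libraries alone, so their direction was set by the filter and is given with no test. Sgs3 had 0 and 0 reads in DmAngel KO, against 74 and 65 in control, at least 45.6-fold lower in DmAngel KO on TMM-scaled sums with a floor of 3 counts over the group. Sgs7 had 0 and 0 reads in DmAngel KO, against 69 and 54 in control, at least 40.4-fold lower on the same floor. Sgs5 had 1 and 0 reads in DmAngel KO, against 54 and 26 in control, and Sgs5bis 0 and 1 in DmAngel KO, against 48 and 11 in control. Sgs8 had 0 and 0 in DmAngel KO, against 20 and 4 in control, and was too low to be tested. These counts are small beside those of Muc26B, with 6543 and 6302 reads in DmAngel KO and 12360 and 8779 in control, and the list was chosen with earlier results of these data known.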
